A study of Mus musculus with 6 samples.

Results

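The 40 genes described here form the type I interferon response module: antiviral effectors, sensors of viral RNA, and the STAT and IRF factors that switch these genes on. They were listed by symbol, and a probe was assigned to a gene when the RefSeq accession printed for that probe on the array belonged to it. Of the 40 genes, 37 had a probe and 36 were tested, among 20660 genes named and 15838 genes tested on the array. All 36 were well above background, by the scanner software's own call, on all 6 arrays. Mx1, Mx2 and Oas1b were matched to no probe through the reference table and are not analysed here. Oas1g had 2 probes, neither of them well above background on any array.

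The RNA came from spheres, free-floating clusters of cells, made from mouse mammary tumors. The tumors came from mice heterozygous for FRS2beta (hetero, 3 arrays) or from FRS2beta knock-out mice (3 arrays), and no wild-type group was included. FRS2beta, encoded by Frs3, is a membrane-linked adaptor of FGF and ErbB receptors. All spheres of both genotypes grew in DMEM/F12 with B27 supplement, EGF, bFGF and heparin, and no interferon treatment is given in the labels. The labels number 3 replicates per genotype without saying whether these were separate animals, tumors or cultures, so p-values reflect the spread of these samples alone, and that spread may be technical. The single comparison, knock-out against hetero, asks what loss of both copies of the gene changes in the spheres compared with loss of one.

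Type I interferons, the alpha and beta interferons, bind the receptor made of IFNAR1 and IFNAR2. The kinases JAK1 and TYK2 then phosphorylate STAT proteins, among them STAT2, which join IRF9 and bind the interferon-stimulated response element in the promoters of their target genes. Many of these targets are also induced by interferon gamma or interferon lambda, and in tumors both the malignant cells and macrophages or other stromal cells can express them.

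The promoters of the targets are shown first, because this DNA element is what the module is known for sharing. Within RefSeq promoter windows of 300 bases, from 250 before to 50 after a transcript start on build GRCm38.p6, the element was written as GAAA, any 2 bases and GAAA again, and searched on both strands, with overlapping matches counted separately. A window was given for 29 of the 40 genes. It held at least 1 match in 13 of the 29 (44.8%), against 1079 of 27025 genes (3.99%) with a window. The stretches below belong to the 5 genes with the largest differences that carry a match before the start site. Each is written 5′ to 3′ on the strand of the gene, and capitals mark the match, which reads TTTC, any 2 bases and TTTC where the element lies on the other strand. The Rsad2 stretch is chr12:26456543-26456592 (minus strand), 140 to 91 bases before the start site.
Rsad2: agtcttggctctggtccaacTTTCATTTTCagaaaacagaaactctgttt
The Ifit3 stretch is chr19:34583353-34583436 (plus strand), with 2 matches, and lies 176 to 93 bases before the start site. That start site, base 34583529, lies inside the annotated gene, which begins at base 34583119. The stretch is thus upstream of that transcript start and not of the whole gene.
Ifit3: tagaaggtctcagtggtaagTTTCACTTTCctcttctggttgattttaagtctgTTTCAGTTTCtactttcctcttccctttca
The Oas3 stretch is chr5:120777705-120777754 (minus strand), 95 to 46 bases before the start site.
Oas3: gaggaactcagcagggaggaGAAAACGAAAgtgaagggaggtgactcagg
The Ifit1 stretch is chr19:34640765-34640833 (plus strand), with 2 matches, and lies 124 to 56 bases before the start site.
Ifit1: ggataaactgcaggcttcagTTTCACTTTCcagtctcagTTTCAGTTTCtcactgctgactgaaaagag
The Stat2 stretch is chr10:128270256-128270305 (plus strand), 242 to 193 bases before the start site.
Stat2: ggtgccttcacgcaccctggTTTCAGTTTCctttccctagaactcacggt
The other genes with a match were Isg15, with 3 overlapping matches, Oas1a, Oas1g, Bst2, Ifitm3, Ifih1, Ddx58 and Eif2ak2. A match is a description of these letters and not a measured binding site.

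Values are log2 processed signals after subtraction of each array's 75th percentile, called scaled log2 signal, so that 0 is the 75th percentile of an array. Differences are knock-out minus hetero on that scale with the standard error of the limma fit, and p-values are Benjamini-Hochberg adjusted over the 15838 genes with a threshold of 0.05. The 75th percentile of the unscaled signal ran from 404 to 416 for hetero and from 465 to 487 for knock-out spheres, and no spot was saturated. Over the 35427 probes kept, the correlation was 0.993 to 0.997 within a genotype and 0.973 to 0.979 between genotypes, across probes that are not independent. The 1 probe for Frs3 was well above background on 1 hetero array and on 0 knock-out arrays, so it does not check the genotype labels. The 9 epithelial marker genes tested were all above background in both genotypes, but their summed signal, in units of the array's 75th percentile, was 20.2 to 20.3 in hetero spheres and 177 to 180 in knock-out spheres.

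Most of the interferon response genes were lower in knock-out spheres relative to the other genes on the array. Of the 36 tested, 31 fell (86.1%) against 32.5% of all genes tested, and 0 rose against 27.9% of all genes (limma). The median difference was -0.43, a 1.34-fold lower signal, and the median of all genes was -0.03. The knock-out arrays all lay below the hetero arrays for 32 of the 36 genes (88.9%), against 37.3% of all genes. Of the 36 genes, 12 reached 1.5-fold, a mark that was not counted over all genes. Ifitm1 alone passed 2-fold, with Rsad2 just under it, where 556 of all 15838 genes tested were more than 2-fold lower. The median size of the difference over all genes, whatever its sign, was 0.22. The 5 genes that did not pass the test were Ifit2, Isg20, Adar, Ddx58 and Ifi35. Of the 31 calls, those of Oas2, Bst2 and Ifi27 were each lost when any of 5 of the 6 arrays was left out (adjusted p up to 0.111, 0.0918 and 0.0957). All arrays shared a slide with both genotypes in each of its rows. Within the first row, replicates 1 and 2, the members' median was -0.41, and in the second row, a single array per genotype, it was -0.41. Both rows are parts of the same 6 arrays and no independent replication, and no background over all genes is given within a row. The heat map of the 36 genes shows the separation of the genotypes array by array.

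**Figure D1:**
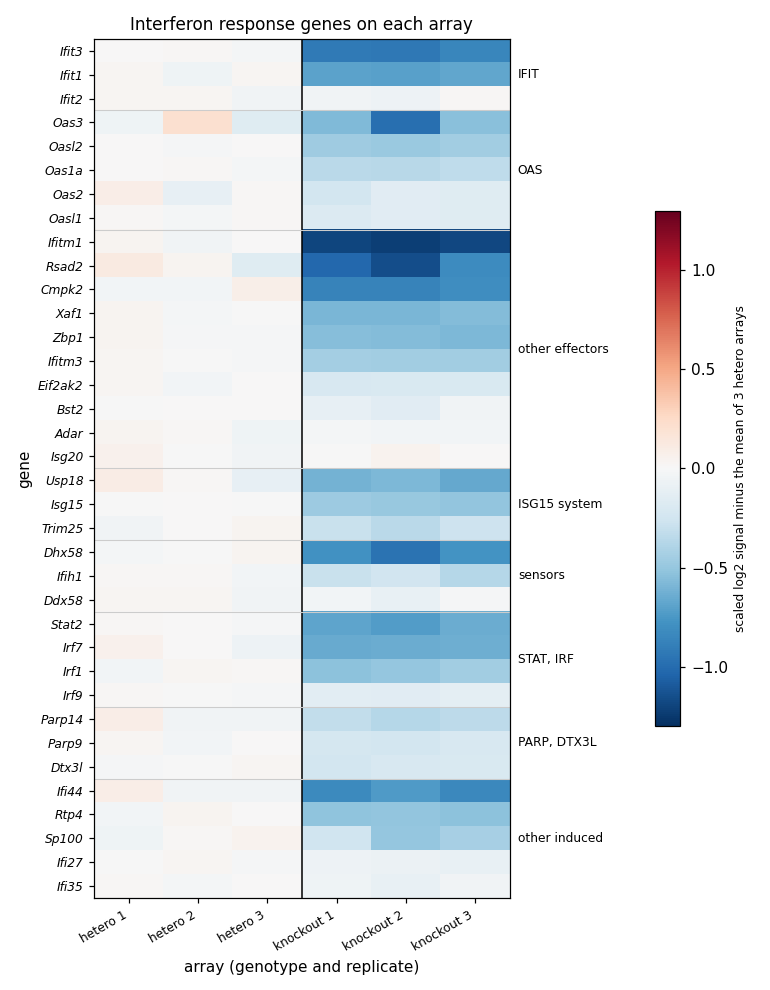
Each row is 1 of the 36 tested genes, grouped by role, and each column 1 array; colour gives the scaled log2 signal minus the mean of the 3 hetero arrays, on the 75th-percentile scaling. The knock-out columns are blue for most of the 31 called genes, most deeply for Ifitm1, Rsad2 and Ifit3. They stay near white for the uncalled Ifit2, Adar, Isg20, Ddx58 and Ifi35, and also for called genes with small differences, such as Ifi27 (-0.08) and Bst2 (-0.10).

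This direction is relative to the scaling. When arrays were scaled on 7 spike-in probes in place of the 75th percentile, every difference moved up by 0.42, and the median of all genes became 0.39. On that scale 14 of the 36 genes were lower (38.9%, against 7.95% of all genes), 15 were higher (41.7%, against 72.5% of all genes), and the members' median was -0.01. Under both scalings 33 of the 36 genes lay below the median of all genes, which a constant shift leaves unchanged by construction. The 14 genes lower under both were Ifitm1, Rsad2, Ifit3, Cmpk2, Dhx58, Ifi44, Ifit1, Stat2, Irf7, Usp18, Xaf1, Zbp1, Rtp4 and Isg15. They were also called lower under each of the 18 alternative settings tried. Which scaling reflects RNA per cell was not tested, and in bulk RNA fewer expressing cells and less RNA per cell cannot be told apart.

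**Figure D2:**
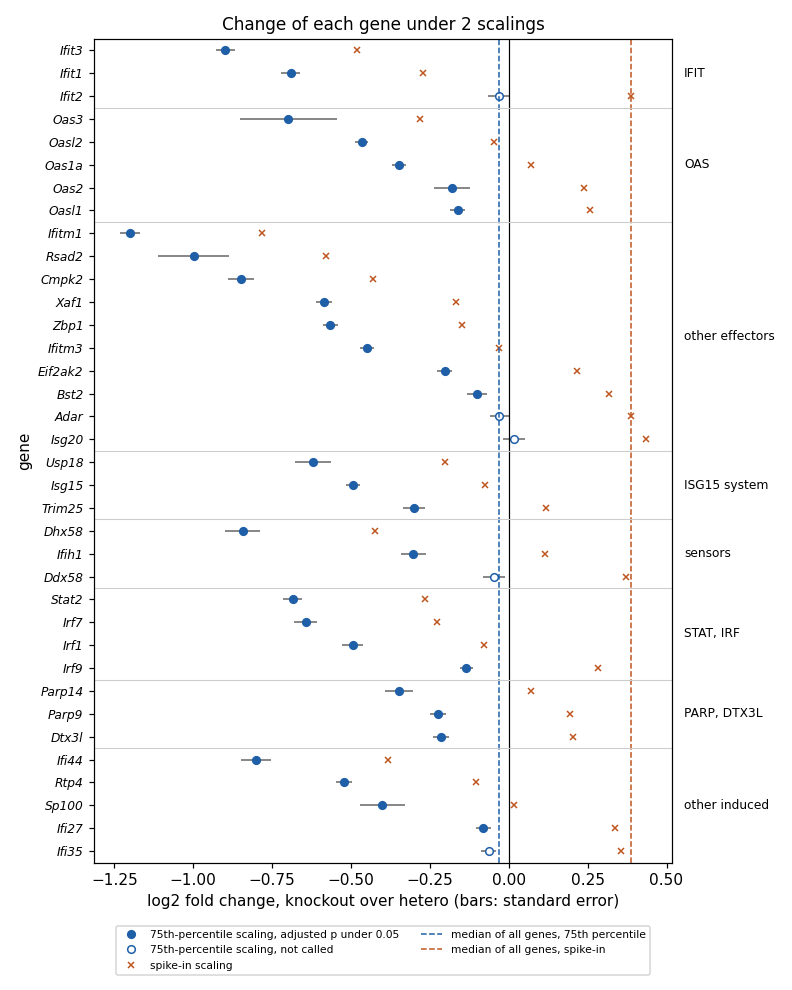
Points are log2 fold changes, knock-out over hetero, with bars for the standard error (3 arrays per genotype); filled points passed the test, open points did not, and crosses are the same genes under spike-in scaling. Dashed lines mark the medians of all genes, -0.03 and 0.39; a gene whose point lies left of 0 and whose cross lies right of it, such as Irf9 or Bst2, changes sign with the scaling.

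The STAT and IRF factors among the members were all lower on the 75th-percentile scaling, 4 of 4, with a median of -0.57. The share of all genes tested that were lower, 32.5%, is the background for this count and for those of the groups that follow. Stat2, the STAT that is dedicated to type I and lambda interferons, had scaled log2 signals of 3.53, 3.51 and 3.50 on the hetero arrays and of 2.83, 2.78 and 2.87 on the knock-out arrays. The groups were well apart, and the difference was -0.69 ± 0.03 (SE, n = 3 each; adjusted p = 1.76e-05), a 1.61-fold lower signal. Irf7, which amplifies the production of interferon alpha, read 0.91, 0.85 and 0.79 in hetero and 0.19, 0.21 and 0.21 in knock-out spheres. The lowest hetero array stood clear of the highest knock-out array by 0.57, and the difference was -0.64 ± 0.04 (adjusted p = 5.65e-05).

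Irf1, an activator that responds to interferon gamma as well as to type I interferon, gave 4.08, 4.14 and 4.13 in hetero arrays and 3.58, 3.62 and 3.66 in knock-out arrays. Its genotypes did not overlap, with a difference of -0.50 ± 0.03 (adjusted p = 9.57e-05), which became -0.08 and was no longer called with spike-in scaling. Irf9, the DNA-binding partner of STAT2, changed least among these factors, from 2.66, 2.64 and 2.63 to 2.51, 2.50 and 2.52. The arrays of the genotypes did not overlap and the difference was -0.13 ± 0.02 (adjusted p = 0.00282), a sign that turned to 0.28 with spike-in scaling. With median scaling its call was lost (-0.12, adjusted p = 0.193).

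Among the IFIT proteins, which bind viral RNA and block its translation, 2 of 3 fell, and the third did not pass the test. Ifit3 had 1.95, 1.97 and 1.92 on the hetero arrays against 1.03, 1.02 and 1.09 on the knock-out arrays. This was a 1.86-fold lower signal with no overlap, -0.90 ± 0.03 (adjusted p = 7.66e-06). Ifit1 read 0.89, 0.81 and 0.89 in hetero spheres and 0.16, 0.16 and 0.19 in knock-out spheres. Again every knock-out array was lower, by a mean of -0.69 ± 0.03 (adjusted p = 2.25e-05). Ifit2 overlapped between the genotypes, with -0.03 ± 0.03 and an adjusted p of 0.455. Ifit3 has a near-identical copy in the same gene cluster, and its probe may read both.

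Ifit2 and Ifit3 are direct neighbours on chromosome 19 in the RefSeq gene order, and 7 such neighbouring pairs of the module had both genes tested. The difference between 2 neighbours within an array is left as it is by any scaling that shifts a whole array, such as the 75th percentile, the median or the spike-in probes, but not by quantile scaling or background correction. Ifit2 minus Ifit3 was -2.46, -2.48 and -2.50 on the hetero arrays and -1.61, -1.62 and -1.61 on the knock-out arrays, a shift of 0.87 ± 0.01 (0.85 with quantile scaling). For these pairs ± is the standard error from the variances of the 2 groups, not that of the limma fit. The groups did not overlap, and the two-sided exact permutation p was 0.1, the smallest that 3 against 3 arrays allow, or 0.14 adjusted over the 7 pairs.

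Ifitm1 and Ifitm3, neighbours on chromosome 7, also shifted against each other, by -0.75 ± 0.02 (exact permutation p = 0.1, adjusted 0.14), and by -0.92 with quantile scaling. The same exact p was reached by Oasl2 minus Oasl1 (-0.30 ± 0.02), by Oas2 minus Oas3 (0.52 ± 0.22, or 0.18 with normexp background correction) and by Parp14 minus Dtx3l (-0.13 ± 0.06). Dtx3l and Parp9, which share a promoter region and whose proteins work as a complex, shifted against each other by 0.01 ± 0.03 (exact permutation p = 0.8). Rsad2 minus Cmpk2 shifted by -0.15 ± 0.14 (exact permutation p = 0.3), and in both of these pairs the genotypes overlapped. How often other pairs of genes separate the genotypes was not counted, so the separated pairs have no background beside them. Among all 15838 single genes, the knock-out arrays lay wholly below the hetero arrays for 5902 and wholly above for 5011.

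The 10 tested genes of the remaining effector group included the largest falls of the module: 8 of 10 were lower, with a median of -0.51. Ifitm1, a membrane protein that hinders virus entry, had 1.52, 1.43 and 1.49 on the hetero arrays and 0.29, 0.26 and 0.30 on the knock-out arrays. The gap between the groups, 1.14, was far above the spread within either, and the signal was 2.30-fold lower (-1.20 ± 0.03, adjusted p = 3.02e-06). Ifitm3, its relative with the same kind of activity, fell by 0.45 ± 0.02 (adjusted p = 2.93e-05), and by 0.27 with quantile scaling.

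Rsad2 encodes viperin, a radical enzyme that makes a chain-terminating nucleotide. Its scaled log2 signals were -1.72, -1.81 and -2.00 in hetero spheres and -2.87, -3.00 and -2.66 in knock-out spheres. Both groups were more spread than most of the module but did not overlap, and the signal fell by 49.9% (-1.00 ± 0.11, adjusted p = 0.000824). With normexp background correction the difference of Rsad2 was -0.69. Cmpk2, the mitochondrial nucleotide kinase next to Rsad2 on chromosome 12, went from -2.54, -2.53 and -2.42 to -3.37, -3.37 and -3.30. Its arrays were tightly grouped by genotype, with a difference of -0.85 ± 0.04 (adjusted p = 3.15e-05), or -0.59 with normexp.

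Xaf1, a pro-apoptotic protein that opposes the inhibitor XIAP, had 1.95, 1.89 and 1.91 in hetero arrays and 1.32, 1.32 and 1.35 in knock-out arrays. The genotypes did not overlap (-0.59 ± 0.03, adjusted p = 2.04e-05). Zbp1, a sensor of Z-form nucleic acid that can trigger necroptosis, fell by 0.57 ± 0.02 (adjusted p = 1.97e-05). Smaller falls, which turn to rises with spike-in scaling, were those of Eif2ak2, the kinase PKR that halts translation (-0.20 ± 0.02, or 0.21), and Bst2, the tetherin that holds virions at the cell surface (-0.10 ± 0.03, or 0.32). Isg20, an RNA exonuclease, had a difference of 0.02 ± 0.03 (adjusted p = 0.697), and Adar, which edits adenosine in double-stranded RNA, of -0.03 ± 0.03 (adjusted p = 0.421). Both overlapped between genotypes.

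Several enzymes of the OAS family, though not every member, make the 2-5A messenger that activates RNase L. The 5 tested genes of the family, OAS-like genes included, were all lower, with a median of -0.35. Oas3 was dim and the least precise gene of the module, at -2.96, -2.70 and -3.07 in hetero spheres and -3.49, -3.89 and -3.46 in knock-out spheres. The groups did not overlap, and the difference was -0.70 ± 0.15 (adjusted p = 0.0112), with knock-out replicate 2 the lowest array. With normexp background correction it was -0.35. Oasl2 fell by 0.47 ± 0.02, Oas1a by 0.35 ± 0.02, Oas2 by 0.18 ± 0.06 and Oasl1 by 0.16 ± 0.02. The call of Oasl1 was lost with median scaling (adjusted p = 0.102), and that of Oas2 with median and quantile scaling (adjusted p = 0.137 and 0.0570). With spike-in scaling none of these 5 was lower, and Oas2 (0.24) and Oasl1 (0.26) were higher. Oas1a belongs to a cluster of near-identical genes, so its probe may read some of them too.

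In the ISG15 system, a ubiquitin-like tag with its enzymes, 3 of 3 genes were lower, with a median of -0.49. Isg15 itself had 5.35, 5.36 and 5.36 on the hetero arrays and 4.89, 4.86 and 4.84 on the knock-out arrays. The hetero arrays agreed to within 0.01, the genotypes did not overlap, and the signal was 1.41-fold lower (-0.49 ± 0.02, adjusted p = 2.15e-05). Usp18, the protease that removes ISG15 and damps the receptor, gave 1.79, 1.71 and 1.60 in hetero spheres and 1.09, 1.12 and 1.04 in knock-out spheres. The difference of -0.62 ± 0.06 (adjusted p = 0.000343) was again larger than the spread within either group. Trim25, a ubiquitin ligase for RIG-I, fell by 0.30 ± 0.03 on the 75th-percentile scaling and stood at 0.12 on the spike-in scaling.

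Of the RIG-I-like sensors of viral RNA, 2 of 3 were lower, with a median of -0.30. Dhx58, the regulatory member LGP2, had 0.17, 0.18 and 0.22 on the hetero arrays and -0.60, -0.77 and -0.59 on the knock-out arrays. This 1.79-fold lower signal had no overlap (-0.84 ± 0.06, adjusted p = 9.93e-05). Ifih1, the sensor MDA5 of long double-stranded RNA, fell by 0.30 ± 0.04 (0.12 with spike-in scaling), a call that was lost when its probes were averaged (-0.09, adjusted p = 0.629). For Ddx58, which is RIG-I itself, the brightest probe overlapped between genotypes (-0.05 ± 0.04, adjusted p = 0.298).

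A second probe changed the reading of some genes. It was kept for 9 of the tested genes, and 6 of these second probes were lower in a fit of all kept probes. The share of all probes called lower in that fit is not given, so this count has no background beside it. For Ddx58 the dimmer probe gave -0.36 ± 0.06 (adjusted p = 0.00464), and for Adar a second probe gave -0.25 ± 0.03 (adjusted p = 0.00199), unlike the probes used. Xaf1 and Zbp1 had larger falls by their second probes, -0.99 and -0.77, while Isg15 had -0.37 and Oas1a -0.30. The dim second probes of Ifih1 (0.13 ± 0.29) and Dtx3l (-0.27 ± 0.14) and that of Isg20 (-0.01 ± 0.03) were not called.

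PARP9 and DTX3L form an ADP-ribosylation and ubiquitin ligase complex, and PARP14 is a related enzyme. All 3 genes were lower on the 75th-percentile scaling, with Parp14 at -0.35 ± 0.04, Parp9 at -0.22 ± 0.03 and Dtx3l at -0.22 ± 0.03, and all 3 were positive with spike-in scaling, at 0.07, 0.19 and 0.20. They lie side by side on chromosome 16.

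Of the other induced genes, 4 of 5 were lower, with a median of -0.40. Ifi44, a cytoplasmic protein induced by infection, had 0.52, 0.40 and 0.40 in hetero spheres and -0.39, -0.30 and -0.39 in knock-out spheres. No arrays overlapped, and the signal was 1.74-fold lower (-0.80 ± 0.05, adjusted p = 7.13e-05). Rtp4, a chaperone of receptors at the membrane, fell by 0.52 ± 0.03, and Sp100, a nuclear body protein, by 0.40 ± 0.07 (0.02 with spike-in scaling). Ifi27 fell by 0.08 ± 0.02 (adjusted p = 0.0313), but stood at 0.34 with spike-in scaling and at 0.10 with quantile scaling. Ifi35 was not called, at -0.06 ± 0.02 (adjusted p = 0.0684), although its genotypes did not overlap.

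**Figure D3:**
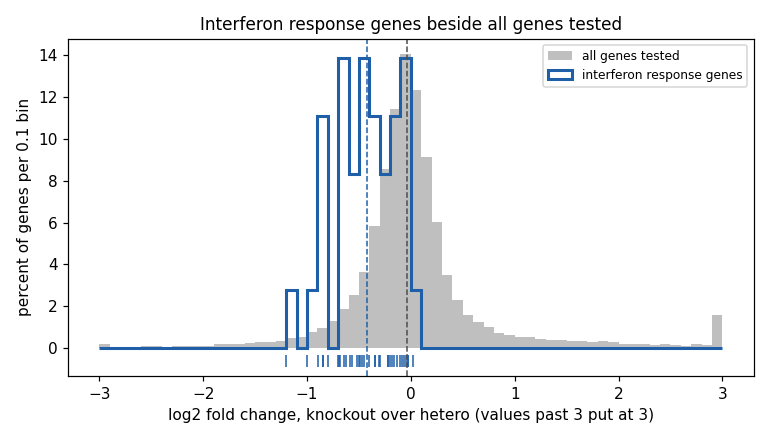
The x axis is the log2 fold change, knock-out over hetero, on the 75th-percentile scaling, and the y axis the percent of genes in each bin; grey is all 15838 genes, the blue outline and the ticks the 36 interferon response genes. Dashed lines mark the medians, -0.03 and -0.43, and values past 3 in either direction are drawn at 3. The blue genes run from -1.20 (Ifitm1) to 0.02 (Isg20), while all genes run from -5.47 to 6.32.

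Most members fell both with and without a match to the promoter element. Among the 12 tested genes with a match, 11 were lower with a median of -0.47, and among the 16 with a window and no match, 12 were lower with a median of -0.35. Ifitm1, the largest fall, had no match in its window, and Ddx58, with a match, was not called. Over all genes with a window that were tested, 32.4% were lower and 27.2% higher. The 474 tested genes of the array with a match were lower in 43.7% and higher in 22.4%, with a median of -0.12. These figures share the scaling described above and are given without a test.

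The remaining genes of the pathway were followed in 7 lists, and 73 of their 111 tested genes were lower and 13 higher, with a median of -0.32, beside 32.5% lower and 27.9% higher among all genes. With spike-in scaling the balance turned, to 33 lower and 49 higher with a median of 0.10, beside 7.95% and 72.5% among all genes. Those shares are the background for each list that follows. Of 10 tested interferon genes, the ligands, 0 were lower and 2 were higher, with a median of -0.14. They were dim, with a summed signal of 1.91 to 2.26 in hetero and 1.86 to 2.22 in knock-out spheres, in units of the array's 75th percentile. Ifnb1, Ifna4, Ifne and Ifng were not well above background on 3 arrays and were not tested. Ifna5 was higher by 0.43 ± 0.09 (adjusted p = 0.00853), and 0.05 and not called with normexp background correction. Ifnk was higher by 0.87 ± 0.27 (adjusted p = 0.0397), with 1 of 3 hetero arrays above background. Its call was lost when any of 5 of the 6 arrays was left out (adjusted p up to 0.106), and its value was -0.04 with normexp. Alpha interferon genes are near copies of each other, so their probes may read several.

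Among 10 receptor, kinase and STAT genes, 7 were lower and 3 higher, with a median of -0.17, against 1 lower and 7 higher with spike-in scaling (median 0.24). The receptor chains Ifnar2 and Ifnar1 were at -0.46 ± 0.02 and -0.11 ± 0.02, and the kinase Jak1 fell by 0.83 ± 0.02, the largest fall of this list. Its partner kinase Tyk2 was higher by 0.23 ± 0.03. Ifnlr1, the lambda interferon receptor found mainly on epithelial cells, was 14.6-fold higher (3.87 ± 0.08, or 2.71 with normexp). With spike-in scaling Ifnar1 (0.30) and Stat3 (0.10, from -0.32) were higher, while Jak1 stayed lower (-0.41). Averaging a gene's probes gave -0.02 for Ifnar1, with the call lost (adjusted p = 0.657), and -0.13 for Stat3.

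Of 14 genes of nucleic acid sensing, 7 were lower and 3 higher, with a median of -0.10, against 2 lower and 11 higher with spike-in scaling (median 0.32). Irf5, a myeloid interferon regulatory factor, fell by 1.13 ± 0.16 and Ifi204, a DNA sensor of the IFI16 type, by 0.56 ± 0.02, while Aim2, the inflammasome DNA sensor, was higher by 0.57 ± 0.04. With normexp Irf5 was at -0.74 and Aim2 at 0.26. Ticam1, the adaptor TRIF, was at -0.24 ± 0.02, and at 0.17 with spike-in scaling. Among 12 negative regulators 8 were lower and 2 higher, with a median of -0.24, against 2 lower and 7 higher with spike-in scaling (median 0.18). Socs3, an inhibitor of JAK kinases, fell by 0.93 ± 0.03 and Trex1, a DNase that clears cytosolic DNA, by 0.47 ± 0.04. Nlrc5, which also activates MHC class I genes, fell by 0.90 ± 0.08, or by 0.49 when its probes were averaged. Irf2, a repressor at interferon elements, was at -0.29 ± 0.03 and at 0.13 with spike-in scaling.

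Known interferon targets outside the module were counted in the same way. Of 42 further interferon-induced genes tested, 30 were lower and 3 higher, with a median of -0.33, against 12 lower and 19 higher with spike-in scaling (median 0.09). Ifi27l2a fell by 1.50 ± 0.03 and Mndal, of the Ifi200 cluster of similar genes, by 1.69 ± 0.05. Gm12250 was at -1.17 ± 0.04, or -0.83 with normexp. Targets that lean towards interferon gamma had a median of -0.76, with 12 of 15 lower and 0 higher, and 9 lower and 1 higher with spike-in scaling. The chemokine Cxcl10 fell by 1.34 ± 0.04, and of the immunity-related GTPase genes named here Iigp1 was at -1.29 ± 0.04, Irgm2 at -0.77 ± 0.03 and Igtp at -0.68 ± 0.02. Irgm1, of the same family, was not called (-0.0043 ± 0.02, adjusted p = 0.892) and is named after its value was seen. All 11 MHC class I and immunoproteasome genes were lower, with a median of -0.63 (8 lower and 1 higher with spike-in scaling). They included the MHC heavy chain genes H2-D1 at -1.57 ± 0.02 and H2-K1 at -1.47 ± 0.02, and the immunoproteasome subunits Psmb9 at -1.66 ± 0.03 and Psmb8 at -0.94 ± 0.03. Between these lists 3 genes are shared, and no test compared the lists.

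Markers of other cells moved in the same samples. All 16 macrophage marker genes tested were lower, with a median of -1.73 on the 75th-percentile scaling and -1.31 on the spike-in scaling. Their summed signal, in units of the array's 75th percentile, was 99.3 to 103 in hetero spheres and 68.2 to 70.0 in knock-out spheres. Itgam, the brightest, made up most of that sum and fell least (-0.32 ± 0.03), and without it the other 15 genes summed to 27.2 to 27.5 in hetero and 10.1 to 10.2 in knock-out spheres. None was at background on all arrays of a genotype, and 14 of 16 were above it on every array. Adgre1, which encodes a macrophage surface receptor, fell by 2.48 ± 0.03 (or by 1.54 with normexp) and Lyz2, lysozyme, fell by 1.95 ± 0.02. The complement gene C1qc was at -1.81 ± 0.02 (-1.28 with normexp) and the protease gene Ctss at -1.65 ± 0.02. Ptprc, the common leukocyte marker CD45, fell by 1.52 ± 0.09 (or by 0.81 with normexp). Of 8 fibroblast markers 7 were lower and 0 higher, with a median of -0.61, among them Dpt (-1.61 ± 0.02) and Pdgfra (-1.32 ± 0.03). The 9 epithelial markers were all higher, with a median of 3.44, including Krt8 (3.25 ± 0.02) and Krt7 (3.65 ± 0.02). The 4 tested plasmacytoid dendritic cell markers had a median of -0.23, with 2 lower and 1, Ly6d, higher (3.85 ± 0.03). Not all genes on the other immune lists fell. Of 3 neutrophil markers 1 was lower and 2 were higher, with a median of 0.63 and values up to 2.07. That highest value was of S100a9, which was above background on 1 of 3 hetero arrays. The T and NK cell list and the B cell list, 3 tested genes each, had 1 lower and 1 higher, with values up to 2.89 and 3.86 and medians of -0.02 and -0.15. The 3.86 was of Ms4a1, which was above background on 0 of 3 hetero arrays. Which cells these higher signals came from was not tested. Of 5 endothelial markers 3 were lower and 1 higher, with a median of -0.16. With spike-in scaling 14 macrophage markers were lower and 1 higher. The fibroblast markers then had 5 lower and 1 higher, with a median of -0.19. In the plasmacytoid dendritic cell, neutrophil and endothelial lists 0 were lower and 3 higher each. In the T and NK cell list and the B cell list 0 were lower and 2 higher each. Among all genes 7.95% were lower and 72.5% higher on that scaling. The part of these cell markers in the fall of the interferon response genes was not tested. With 3 arrays per genotype, the precision of all values is limited by that number.

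**Figure D4:**
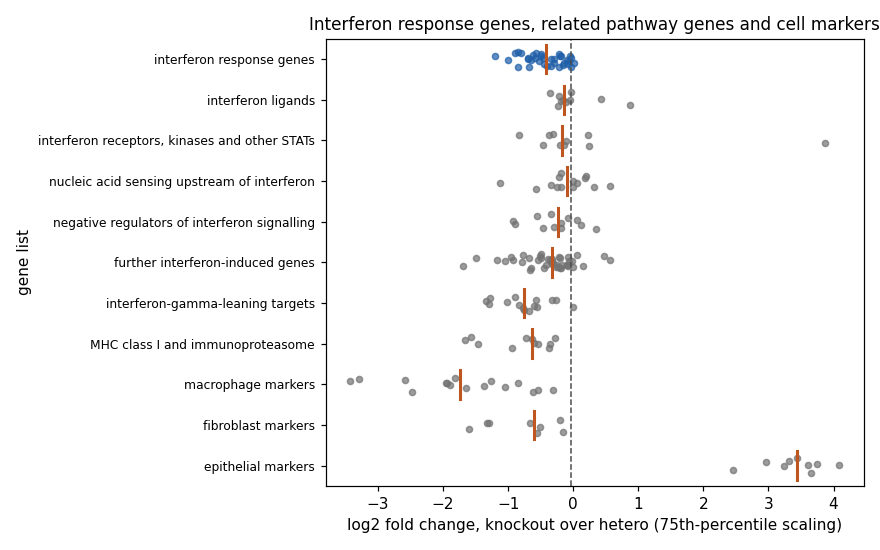
Each point is 1 tested gene, placed by its log2 fold change, knock-out over hetero, on the 75th-percentile scaling; vertical bars are list medians and the dashed line is the median of all genes, -0.03. The interferon response genes have a median of -0.43, the macrophage markers of -1.73 and the epithelial markers of 3.44; spike-in scaling moves every point up by 0.42, which makes 18 of the 36 interferon response genes positive.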

How the data were processed

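Spot intensities on a linear scale were deposited, made with version 10.7.3.1 of Agilent Feature Extraction (per the submitters' processing notes), and the processed signal used here had background subtracted, per the file headers. Control spots (3671 of 62976) and 102 to 129 outlier spots per array were left out. Spots of a probe were averaged on the log2 scale and scaled to the array's 75th percentile. Probes well above background on at least 3 of 6 arrays were kept, 35427 in all. The brightest kept probe stood for a gene, named by RefSeq accession (GRCm38.p6 table; the array header names mm9, so coordinates are those of the RefSeq sequences only). Knock-out and hetero arrays were compared in limma 3.58.1 (R 4.3.3; lmFit, then eBayes) without covariates, and the script was tested on simulated data. All arrays share 1 slide, whose rows hold both genotypes and whose columns hold a single genotype each.

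The members and lists were chosen with earlier results of these data known. Per-array values are given for the 12 largest differences and for Stat2, Irf9, Irf7, Irf1 and Isg15. Of each pathway list and the macrophage markers up to 4 called genes with the smallest p are named, of the fibroblast and epithelial markers 2 each, and Ifnar1, Ifnar2, Jak1 and Tyk2 always; 1 gene that the rule takes is not reported here and was left out of the lists. Alternatives covered scaling (quantile, median, spike-in probes), normexp with an offset of 50 (on the median signal, since the files used here hold no mean signal), dim-probe filters, the mean of a gene's probes, the deposited value table of intensities, the replicate block, leaving out each array and, chosen after the data were seen, slide row and column as blocks.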

Additional observations from a re-analysis of the deposited data

How the results depend on the processing

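The 31 members called lower numbered 26 to 32 under the alternatives other than spike-in scaling, and 14 with it; with spike-in scaling 15 members were higher, and with quantile scaling 1, Ifi27 (0.10). The median of -0.43 became -0.36 with quantile scaling, -0.36 with normexp, -0.0070 with spike-in scaling, and ran from -0.46 to -0.40 when each array was left out. Bst2, Ifi27 and Oas2 lost their call when single arrays were left out (5 of 6 cases each), and with median scaling, as did Irf9 and Oasl1; Sp100 lost its call within slide row 1 and Ifih1 when its probes were averaged. With spike-in scaling the sign turned for Ifit2 (0.39), Oas1a (0.071), Oas2 (0.24), Oasl1 (0.26), Bst2 (0.32), Eif2ak2 (0.21), Adar (0.39), Trim25 (0.12), Ddx58 (0.37), Ifih1 (0.12), Irf9 (0.28), Parp9 (0.19), Dtx3l (0.20), Parp14 (0.071), Ifi35 (0.35), Ifi27 (0.34), Sp100 (0.018), Ifnar1 (0.30), Stat3 (0.10), Ticam1 (0.17) and Irf2 (0.13), by construction of its constant shift. With slide row as a block 30 members were lower, and 32 with slide column as a random block (consensus correlation -0.41). Each column holds a single genotype, so the column fit cannot separate a column effect from genotype, and its count adds no support. Ddx58 stood at 0.0070 with quantile scaling and Ifnk at -0.042 with normexp; for these the cause was not tested. Without single arrays Isg20 ran from -0.0052 to 0.043. With the replicate block 27 members were lower, and of all genes called there were 8496 in place of 9571; same-numbered arrays did not deviate together (r = -0.15, -0.00 and -0.00), so the numbers were not taken as pairs. Precision is limited by 3 arrays per genotype, and for dim genes such as Oas3 by signal near background.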
